A study of Homo sapiens with 6 samples.

Results

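The messenger RNA of chromosome 1 was followed by position in HEK293 cells, in 2 stretches that meet just past 28 Mb from the short-arm end, between the starts of SPCS2P4 at 28095742 and PTAFR at 28147166. Members were all genes of chromosome 1 with a mean estimated read count of at least 10 over 6 libraries, placed by their GENCODE start on hg38. Of 60609 gene identifiers in the files, 5301 had a position on chromosome 1 and 1574 of these were members, out of 15971 genes with such a count anywhere. The stretch below that border held 302 members and the stretch above it 1272, of which 588 lay on the short arm (p) and 684 on the long arm (q). The border and the stretches were chosen on the difference between wild type and knockout, so that difference is described here and supports nothing further. The lowest members were PLEKHN1 and ENSG00000283696, both with a mean count of 10.0, and the nearest genes outside were ENSG00000267561 at 9.90 and ENSG00000217801 at 9.83. PLEKHN1 had a log2 fold change of −1.53 and the 2 genes outside had 0.61 and 0.79, in that order. A low-count filter kept 1565 members for the fit, 298 below and 1267 above the border. The 9 that it left out were LINC00115, MMP23B, ENSG00000284747 and TMEM51-AS1 below, and ENSG00000228084, ENSG00000283696, ENSG00000278467, COA6-AS1 and ENSG00000228830 above.

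HEK293 is a human embryonic kidney line that carries adenovirus DNA, and 3 wild-type libraries were set against 3 libraries of STAT5B knockout cells. CRISPR/Cas9 made the knockout, and sequencing and a protein blot were used to pick clones with changes on both alleles, per the labels. That protocol also names GS knockout clones, and some control names hold the word Sham. Neither is explained, and it is not stated whether libraries within a group are separate cultures or clones. Any p-value therefore measures the spread between these libraries, which may be technical, and a difference between the groups cannot be told apart from a difference between the clones. Library totals ran from 17494958 to 21099813 estimated counts. STAT5B messenger RNA was present in every library, at 64.6 to 70.1 CPM (counts scaled to a common library size) in wild type and 60.5 to 63.1 CPM in knockout. All 8 markers of HEK293 fixed for the check exceeded 1 CPM, with summed levels of 1205 to 1241 CPM in wild type and 1034 to 1052 CPM in knockout. Of these NEFM, a neurofilament gene, was at 420 to 452 CPM in wild type and 179 to 211 CPM in knockout, while VIM (584 to 600 against 628 to 655 CPM) and NEFL (105 to 107 against 110 to 113 CPM) were higher in knockout. Of 4 blood-cell markers, 3 (PTPRC, CD3E and HBB) were at 0 in every library.

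STAT5B is a DNA-binding protein activated by JAK kinases downstream of cytokine and growth hormone receptors. HEK293 has more than the diploid number of chromosomes, and its stocks and clones are known to differ in the copies of whole chromosomes and chromosome segments. Where a segment differs in copies, the genes along it tend to differ together in messenger RNA, whatever their function. Copy number itself was not analysed here, so every value is a messenger RNA level and whether DNA copies moved with it was not tested.

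Promoter sequences show where the border lies and what 2 members that moved in opposite directions carry in front of their starts. Each is the stretch of 250 bases upstream of the RefSeq start, on the gene's strand, from the RefSeq table of build GRCh38.p14. EYA3 (chr1:28088611-28088860, minus strand) is the last named protein-coding member below the border, and DNAJC8 (chr1:28233030-28233279, minus strand) the first above it with at least 5 CPM.
EYA3: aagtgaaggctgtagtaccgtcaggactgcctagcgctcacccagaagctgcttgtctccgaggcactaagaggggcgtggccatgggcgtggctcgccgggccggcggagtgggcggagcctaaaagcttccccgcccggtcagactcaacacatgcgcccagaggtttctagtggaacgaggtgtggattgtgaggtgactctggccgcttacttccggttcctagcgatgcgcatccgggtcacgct
DNAJC8: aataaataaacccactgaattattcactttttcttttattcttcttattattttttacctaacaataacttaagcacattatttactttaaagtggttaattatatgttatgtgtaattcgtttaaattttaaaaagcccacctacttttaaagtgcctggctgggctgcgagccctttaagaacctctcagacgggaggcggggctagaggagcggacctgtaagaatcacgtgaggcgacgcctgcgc
ID3 (chr1:23559502-23559751, minus strand) lies below the border and ARF1 (chr1:228082458-228082707, plus strand) above it. Both hold the palindrome TTCNNNGAA that STAT5 proteins are known to prefer, printed in capitals.
ID3: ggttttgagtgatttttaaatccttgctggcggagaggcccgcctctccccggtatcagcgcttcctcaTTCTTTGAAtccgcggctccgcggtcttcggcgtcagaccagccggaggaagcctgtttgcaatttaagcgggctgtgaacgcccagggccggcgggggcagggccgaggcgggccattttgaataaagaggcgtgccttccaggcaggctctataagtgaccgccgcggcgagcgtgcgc
ARF1: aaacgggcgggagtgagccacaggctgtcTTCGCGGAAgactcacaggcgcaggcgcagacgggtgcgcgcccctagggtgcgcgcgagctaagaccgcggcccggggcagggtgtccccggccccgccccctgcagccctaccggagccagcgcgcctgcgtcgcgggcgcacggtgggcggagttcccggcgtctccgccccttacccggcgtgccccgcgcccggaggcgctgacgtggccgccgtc
The palindrome was searched as TTCNNNGAA, which reads the same on both strands. It stood in 12 of 225 matched promoters below the border (5.33%) and in 52 of 971 above it (5.36%). The share was 5.25% of the 11266 tested genes with a promoter in the table and 6.57% of all 35116 promoters. Above the border, 26 of 463 matched members that passed the threshold upward held it (5.62%), 2 of 27 that passed downward (7.41%) and 24 of 480 that did not pass (5%). A match is only a match of letters in this window. Promoters below the border were richer in G and C, with a median of 70.0% against 63.6% above.

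Below the border, messenger RNA of most members was slightly lower in the knockout, and above it most members were higher. The median log2 fold change (knockout over wild type, from edgeR) was −0.065 over the 298 tested members below, with quartiles of −0.19 and 0.06, which is a fold of 0.956. Over the 1267 above it was 0.18, with quartiles of 0.06 and 0.32, a fold of 1.14. The median over all 15958 tested genes was 0.0063. Of the members below, 104 (34.9%) had a fold change over 0, against 1035 (81.7%) of those above. At an edgeR quasi-likelihood p adjusted over all genes of under 0.05, hereafter called passing, 551 members above the border passed upward (43.5%) and 31 downward (2.45%), while 685 did not pass. The background over all tested genes was 12.1% upward, 11.4% downward and 23.4% in either direction. Below the border 13 passed upward (4.36%), 44 downward (14.8%) and 241 did not pass. The 3 knockout libraries all lay above the 3 wild-type libraries for 685 members above the border and all below them for 62, against 19.9% and 18.7% of all tested genes. Below the border these counts were 27 and 72 members. The counts were lower with effective-length offsets, where 318 passed upward and 11 downward above the border and 4 and 21 below it, and with limma on log2(TPM + 1), at 189 and 21 above and 3 and 26 below. With length and GC offsets, chosen after seeing the data, they were 540 and 27 above and 9 and 37 below. Without wild-type library 1 they were 4 and 31 below the border.

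**Figure D1:**
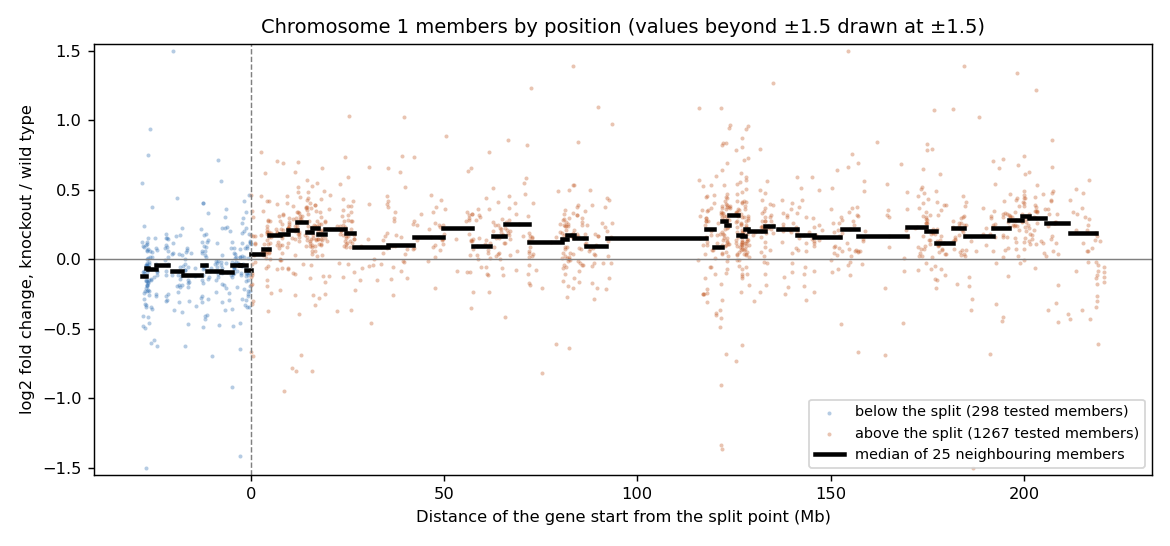
Log2 fold change, knockout over wild type, of each tested chromosome 1 member (points) against the distance of its start from the border in Mb. Black bars are medians of 25 neighbouring members. The 11 bars below the border run from −0.12 to −0.038 and the 50 bars above it from 0.041 to 0.32, and the last 15 tested members of the long arm have no bar.

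The shift had almost the same size in each knockout library. For each library the median over members of log2(CPM + 0.5) was taken, relative to the wild-type mean of each gene. Above the border it was −0.0051, 0.0081 and 0.00090 in wild type and 0.182, 0.179 and 0.180 in knockout, with an SD of 0.0015 between the knockout libraries. Below the border it was 0.014, −0.0067 and −0.0040 in wild type and −0.067, −0.067 and −0.043 in knockout. The groups did not overlap in either stretch. As a share of all estimated counts, members above the border took 9.72%, 9.81% and 9.81% of the wild-type libraries and 10.95%, 10.89% and 10.92% of the knockout libraries, or 9.78% ± 0.0493 against 10.9% ± 0.0324 (SD, n = 3). Members below took 1.54% ± 0.0073 in wild type and 1.48% ± 0.0097 in knockout. Here too the ranges of the groups were apart.

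**Figure D2:**
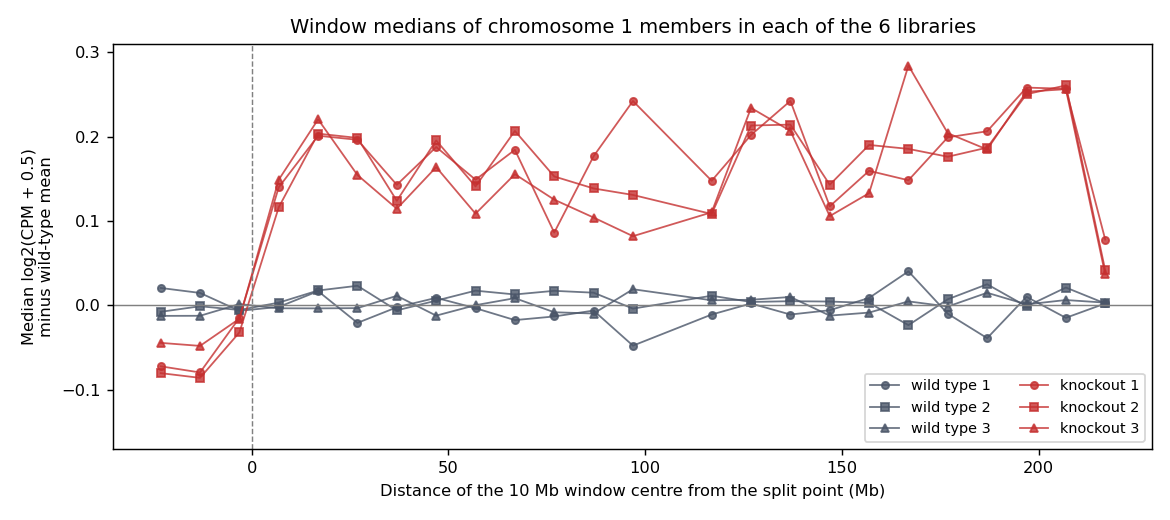
Median over members of log2(CPM + 0.5) minus the wild-type mean, in windows of 10 Mb (points, by distance of the window centre from the border in Mb) for each of the 6 libraries. From the first whole window above the border, all 3 knockout lines lie above all 3 wild-type lines, and in the last window they come down towards them.

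Along the chromosome, medians over 0 were found in all windows from 30 Mb on and on both arms. In windows of 10 Mb the median log2 fold change was −0.085 from 0 to 10 Mb, −0.071 from 10 to 20 Mb and −0.040 from 20 to 30 Mb, the window that holds the border. All 21 windows from 30 Mb on had a median over 0, and in all 21 the knockout libraries lay above the wild-type libraries. The highest medians were 0.27 from 220 to 230 Mb and 0.27 from 230 to 240 Mb, where 47 of 80 and 30 of 47 tested members passed upward. The window from 150 to 160 Mb was the fullest, with a median of 0.23 and 83 of 155 members passing upward. The lowest medians from 30 Mb on were 0.12 from 60 to 70 Mb and 0.061 from 240 to 250 Mb. The p arm above the border had a median of 0.17 over 587 tested members, of which 236 passed upward and 19 downward. The q arm had a median of 0.21 over 680, of which 315 passed upward and 12 downward. In library medians the arms were also apart, at 0.152 to 0.169 for the p arm and 0.196 to 0.204 for the q arm in the knockout. The arms were divided at the centromere, taken as the widest gap between annotated genes, from 121580524 to 143343180.

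Around the border itself the members were mixed, and no single gene marked it. The last members below it with a mean of at least 10 CPM held both directions. WASF2, an actin regulator of the WAVE complex, had a log2 fold change of −0.15 ± 0.03 (SE). STX12, a syntaxin of endosomes, had 0.18 ± 0.05 and RPA2, a subunit of the single-strand DNA-binding protein RPA, 0.14 ± 0.04. STX12 and RPA2 no longer passed with effective-length offsets (0.13 and 0.12) or with length and GC offsets (0.12 and 0.061). The STX12 call also ended with limma on log2(TPM + 1) and without wild-type library 1 or 2 or knockout library 1. EYA3, a transcription cofactor with phosphatase activity at 27970344 to 28088696, was at 102, 105 and 102 CPM in wild type and 87.5, 93.9 and 88.1 CPM in knockout. Its groups were apart, with a log2 fold change of −0.19 ± 0.04. EYA3 no longer passed with effective-length offsets (−0.082) or limma on log2(TPM + 1). SPCS2P4, a pseudogene at 28095742 to 28096422, was at 31.5 to 34.8 CPM in wild type and 33.2 to 40.4 CPM in knockout, and its groups overlapped.

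Above the border, members of at least 5 CPM were mixed in the same way at first. DNAJC8, a J-domain protein of the splicing machinery at 28199456 to 28233025, was at 206, 223 and 216 CPM in wild type and 245, 251 and 232 CPM in knockout, a log2 fold change of 0.17 ± 0.04, which was 0.087 with length and GC offsets and no longer passed. Its neighbour ATP5IF1, the inhibitor of mitochondrial ATP synthase, was at 125, 133 and 129 CPM in wild type and 120, 120 and 114 CPM in knockout, or −0.13 ± 0.04. The groups were apart in both genes, in opposite directions. ATP5IF1 turned to 0.05 with effective-length offsets, and it no longer passed without wild-type library 2 (−0.11) or 3 (−0.12) or knockout library 3 (−0.10). SESN2, a stress-induced regulator of mTORC1, followed at 0.47. Then came MED18, a Mediator subunit that did not pass (−0.036). PHACTR4, a phosphatase and actin regulator, was at −0.32 ± 0.04 and RCC1, the exchange factor of the GTPase RAN, at −0.11 ± 0.03. RCC1 overlaps the host gene SNHG3, and the use of strand in counting is not stated, so their reads may be shared. The same holds for other members named here that overlap a neighbour. In bins of 1 Mb the median was −0.10 from 27 to 28 Mb over 20 members and −0.068 from 28 to 29 Mb over 18, where 5 passed upward and 6 downward. It was 0.12 from 29 to 30 Mb over 4, 0.32 from 30 to 31 Mb over 4, 0.06 from 31 to 32 Mb over 7 and 0.14 from 32 to 33 Mb over 25 members. In these bins the last median under 0 was thus that from 28 to 29 Mb.

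**Figure D3:**
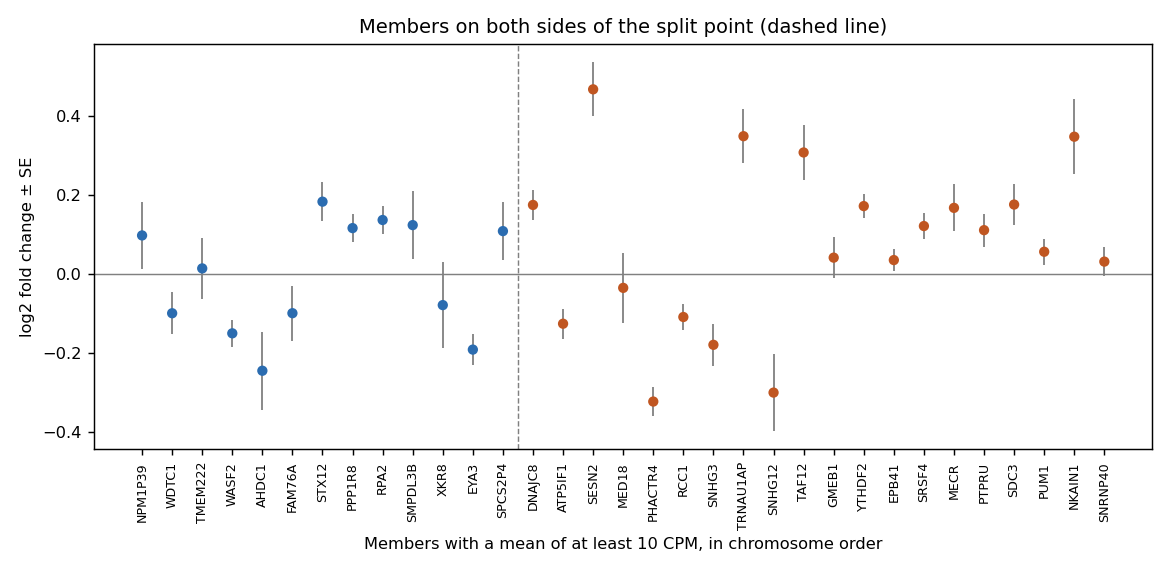
Log2 fold change with SE (bars) of the last 13 members below and the first 20 above the border (dashed line), in chromosome order, for members with a mean of at least 10 CPM. Members over 0 and under 0 stand on both sides, and from TAF12 on all points are above 0.

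The median shift was of similar size in weakly and strongly expressed genes. The tested members of chromosome 1 were split by mean CPM into 5 equal classes. Genes of other chromosomes were placed by the same limits, and classes of length and GC were made in the same way. Members above the border had medians of 0.17, 0.20, 0.21, 0.19 and 0.16 from the lowest to the highest class. Genes of other chromosomes had 0.0087, 0.011, −0.0029, −0.013 and −0.019, and members below the border lay between −0.11 and −0.045. The spread changed with level. The distance between the quartiles above the border fell from 0.58 in the lowest class to 0.19 in the highest, and the members that passed upward went from 13 of 257 to 180 of 273. Of the 685 members that did not pass, 241 lay in the lowest class, up to 3.08 CPM.

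The fold change fell with transcript length in both stretches and on the pooled other chromosomes. From the shortest to the longest class, medians above the border were 0.26, 0.23, 0.21, 0.15 and 0.11, below it 0.028, −0.030, −0.054, −0.086 and −0.15, and on other chromosomes 0.065, 0.027, 0.0075, −0.026 and −0.11. The distance between the 2 stretches stayed between 0.23 and 0.27 in all 5 classes. By GC percent of the transcript the distance was 0.20 to 0.28. The median member was richer in G and C below the border (55.4%) than above it (46.6%) and less abundant (17.3 against 31.7 CPM).

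**Figure D4:**
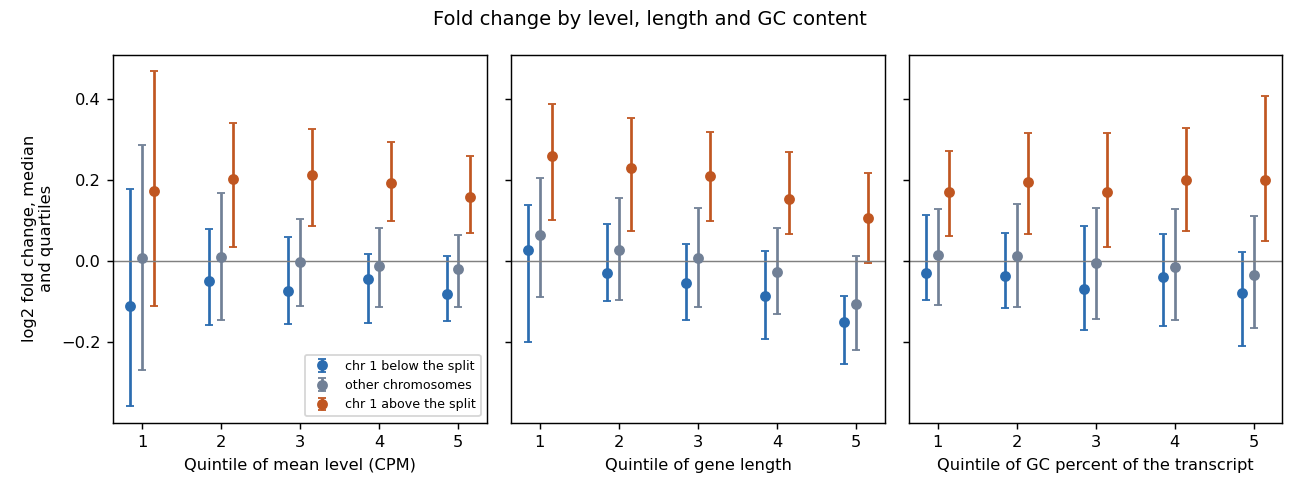
Median log2 fold change (points) with quartiles (bars) in 5 classes of mean level, transcript length and transcript GC percent, for members below the border, members above it and genes of other chromosomes. In each class the members above the border are highest and those below it lowest. All 3 sets fall with length.

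Most members were protein-coding, and above the border other gene types pointed the same way with a wider spread. Of 1068 protein-coding members above the border the median was 0.19, with 534 passing upward and 28 downward. The 55 antisense genes had a median of 0.14, the 33 long intergenic RNAs 0.18 and the 63 processed pseudogenes 0.12. Below the border the 246 protein-coding members had a median of −0.064, the 9 antisense genes −0.064 and the 11 long intergenic RNAs −0.15. The 11 processed pseudogenes there had 0.083, with 7 of them over 0. On other chromosomes protein-coding genes stood at −0.0031, long intergenic RNAs at −0.069 and processed pseudogenes at 0.080, so the pseudogenes of chromosome 1 differed least from those elsewhere. Reads of a processed pseudogene may belong to its parent gene, which often lies on another chromosome.

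Single members scattered around the level of their stretch by more than their own error. Among the 854 members above the border with at least 10 CPM the median was 0.18 with an SD of 0.18, while the median SE of a member was 0.049. Of these, 422 (49.4%) lay within 0.1 of the median and 671 (78.6%) within 0.2. Below the border 97 of 189 such members lay within 0.1 and 155 within 0.2, with an SD of 0.16. Over all tested members above, 15 were more than 2-fold higher and 3 more than 2-fold lower.

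The most abundant members show that spread. YBX1, a cold-shock protein that binds messenger RNA, at 42682427 to 42702349, was at 1650, 1717 and 1730 CPM in wild type and 2319, 2328 and 2206 CPM in knockout. Its groups were far apart, at 0.43 ± 0.03 log2. PARP1, the poly(ADP-ribose) polymerase that senses DNA breaks, at 226360691 to 226408079, went from 1609, 1649 and 1651 CPM to 1934, 1979 and 1882 CPM, or 0.24 ± 0.03, again without overlap. NUCKS1, a chromatin-bound nuclear protein, was nearer the background, at 1718 CPM in wild type and 1863 in knockout (0.12), and it no longer passed without wild-type library 1 (0.099) or knockout library 2 (0.094), nor with effective-length offsets (0.084). SERBP1, which binds ribosomes and messenger RNA, was at 2116, 2140 and 2196 CPM in wild type and 2135, 2220 and 2053 CPM in knockout. HNRNPU, a nuclear scaffold protein, was at 1903, 1959 and 1918 CPM against 2033, 2083 and 1910 CPM. In both of these the groups overlapped, so 2 of the 5 most abundant members above the border did not pass.

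Below the border the 5 most abundant members also differed among themselves. ENO1, the glycolytic enzyme enolase, at 8861000 to 8879250, was at 1540, 1468 and 1578 CPM in wild type and 1683, 1659 and 1817 CPM in knockout, and HMGN2, a nucleosome-binding protein, rose from 650 to 750 CPM. Both passed upward, at 0.17 and 0.20 log2, against the direction of their stretch. ENO1 no longer passed with limma on log2(TPM + 1) (0.087), nor HMGN2 with length and GC offsets (0.099). SPEN, a large transcriptional corepressor at 15847864 to 15940460, was at 739, 734 and 694 CPM in wild type and 532, 501 and 517 CPM in knockout. Its groups were far apart, at −0.48 ± 0.04. The ribosomal protein gene RPL11 (439 ± 14.6 against 422 ± 41.0 CPM; SD, n = 3) and HNRNPR, an RNA-binding protein (352 ± 12.8 against 348 ± 18.8 CPM), overlapped between groups.

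**Figure D5:**
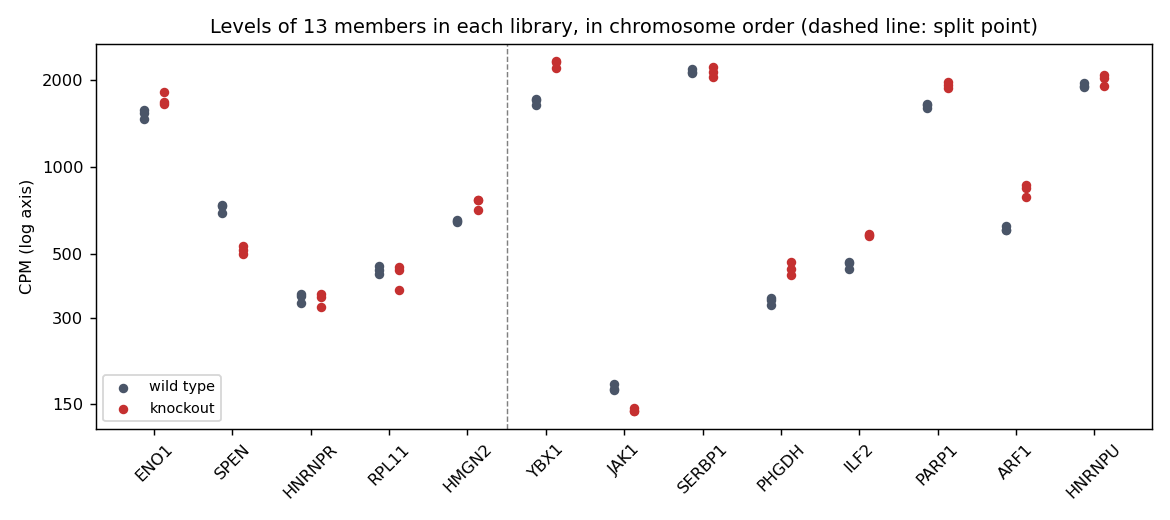
Level in CPM (log axis) of 13 members in each wild-type and knockout library (points), in chromosome order, with the border as a dashed line. Right of the line the knockout points lie above the wild-type points in 5 of 8 members, overlap them in SERBP1 and HNRNPU, and lie below them in JAK1.

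Genes of the chromosome were also grouped by role, in 18 lists. The lists hold genes of chromosome 1 only. Each count therefore stands beside the share of all tested members. This was 43.5% upward and 2.45% downward above the border, and 4.36% and 14.8% below it. These shares pool all levels and gene types. Above the border 534 of 1068 protein-coding members passed upward. The upward share there went from 5.06% in the lowest class of level to 65.9% in the highest, and the downward share from 1.17% to 4.03%. Whether a list exceeds the share for its level was not tested. Of the members named in the lists below as passing, effective-length offsets also ended the calls of CDK11B, ELK4, H4C15, MTOR, NFIA, PINK1, RCC1, RPA2, SCP2, SRRM1, TP73 and TXNIP. Limma on log2(TPM + 1) ended the same ones apart from CDK11B, PINK1 and SRRM1, and those of ATF3, EPRS1, ESRRG, GSTM3, MRPL9, PIK3R3, UAP1, WARS2 and YY1AP1. Length and GC offsets ended those of ELK4, MTOR, NFIA, RPA2, S100A11 and TP73. Where edgeR gives 0 in a direction, other readings differed little. In the 11 lists with 0 passing downward above the border, 1 of 115 tested genes had an unadjusted p under 0.05 downward and DESeq2 called 0. In the 11 lists with 0 passing upward below it, 2 of 38 had such a p upward and DESeq2 called 0. Of the translation genes above the border 5 of 9 passed upward and 0 downward, with a median of 0.18. RPS27, a protein of the small ribosomal subunit, was at 367, 399.9 and 391 CPM in wild type and 512, 522 and 434 CPM in knockout, with the groups apart (0.34 ± 0.06, and 0.17 with length and GC offsets). EIF2B3, a subunit of the exchange factor of eIF2, stood at 0.39. Below the border 0 of 3 passed upward, and EIF4G3, a scaffold of translation initiation, passed downward at −0.31. Of the 6 aminoacyl-tRNA synthetases, all above the border, 5 passed upward, led by SARS1 for serine (0.29), EPRS1 for glutamate and proline (0.23) and WARS2 for tryptophan in mitochondria (0.26). IARS2, the mitochondrial enzyme for isoleucine, did not pass (0.06).

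Of 28 splicing and RNA-binding genes above the border 17 passed upward and 0 downward, with a median of 0.12. PPIH, a cyclophilin of the spliceosome, was at 33.4, 33.4 and 36.6 CPM in wild type and 50.2, 53.7 and 49.9 CPM in knockout, or 0.57 ± 0.06. ILF2, a double-stranded RNA-binding protein, stood at 0.34 and BCAS2, a spliceosome component, at 0.34. Below the border 1 of 5 passed, SRRM1, a coactivator of splicing, at −0.20.

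Of 7 proteins of the mitochondrial ribosome above the border 6 passed upward, with a median of 0.31, among them MRPS15 (0.32), MRPS21 (0.33) and MRPL9 (0.28). Of 15 genes of respiration and mitochondria 12 passed upward and 1 downward. NDUFS5 of complex I was at 111, 112 and 114 CPM in wild type and 146, 158 and 136 CPM in knockout, with the groups apart (0.39 ± 0.05). UQCRH of complex III (0.30) and ATP5PB of the ATP synthase stalk (0.33) also passed, and ATP5IF1 was the one that passed downward. Below the border 0 of 5 passed upward and 2 downward, MFN2, which fuses mitochondria (−0.15), and PINK1, a kinase that marks damaged mitochondria (−0.18). MFN2 no longer passed without wild-type library 2 (−0.13), nor PINK1 without wild-type library 2 (−0.17) or knockout library 2 (−0.16). NDUFS5 and UQCRH have transcripts of 512 and 548 bases, in the shortest class, which had the highest median in both stretches and on the pooled other chromosomes. The part of length in these lists was not tested.

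PHGDH, the first enzyme of serine synthesis, was at 350, 333 and 347 CPM in wild type and 443, 423 and 468 CPM in knockout, or 0.37 ± 0.04. PGM1, which interconverts glucose phosphates, stood at 0.42 and UAP1, which makes UDP-N-acetylglucosamine, at 0.28. Of 5 sugar and serine genes above the border 4 passed upward and 0 downward. Of 9 sterol and lipid genes above the border 6 passed upward and 0 downward, including FDPS, which makes farnesyl diphosphate (0.31), LBR, a sterol reductase of the nuclear envelope (0.25), and SCP2, a sterol carrier (0.20). Of 3 such genes below the border 0 passed in either direction.

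Of the proteasome and ubiquitin genes above the border 13 of 16 passed upward and 1 downward, with a median of 0.25. The proteasome core subunits PSMA5 (0.35), PSMB4 (0.29) and PSMB2 (0.28) led them. PSMA5 was at 122, 125 and 123 CPM in wild type and 154, 157 and 161 CPM in knockout, with the groups apart. USP24, a large ubiquitin protease, passed downward at −0.22. Below the border 0 of 7 passed upward and 2 downward, the deubiquitinase OTUD3 (−0.47) and the ubiquitin ligase UBR4 (−0.23). UBR4 no longer passed with effective-length offsets (−0.15), length and GC offsets (−0.046) or limma on log2(TPM + 1) (−0.22), nor USP24 with effective-length offsets (−0.14) or limma on log2(TPM + 1) (−0.21).

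Cell division genes above the border passed upward in 10 of 19 cases and downward in 2. CKS1B, a cofactor of cyclin-dependent kinases, was at 62.8, 67.9 and 67.6 CPM in wild type and 106, 98.3 and 101 CPM in knockout, or 0.62 ± 0.05. LIN9, a subunit of the cell-cycle complex MuvB, stood at 0.44 and NUF2, a kinetochore protein, at 0.39. CENPF, a large kinetochore protein, went the other way, at 526, 563 and 532 CPM in wild type and 439, 464 and 427 CPM in knockout (−0.28 ± 0.04). It no longer passed with effective-length offsets (−0.19) or limma on log2(TPM + 1) (−0.26). RCC1 was the other, and it no longer passed without wild-type library 1, 2 or 3 or knockout library 1 (−0.12 to −0.091). Below the border RCC2, a regulator of chromosome passage in mitosis (−0.13), and CDK11B, a kinase with a near-identical neighbour CDK11A (−0.22), passed downward and 0 of 4 upward. Of 13 replication and repair genes above the border 9 passed upward and 0 downward, among them UBE2T, the E2 enzyme of the Fanconi pathway (0.48), and EXO1, an exonuclease of mismatch repair (0.32). Below it RPA2 passed upward and TP73, a p53 relative, downward (−0.27). RPA2 no longer passed without wild-type library 1 (0.13) or 2 (0.11). When 1 library was left out, TP73 only kept its call without wild-type library 3 (−0.29 to −0.20 without each of the others). The TP73 call ended in 12 of 16 settings, also with DESeq2, limma-voom and scaling factors without chromosome 1.

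Of 18 chromatin genes above the border 12 passed upward and 0 downward. H3-3A, which encodes the replacement histone H3.3, was at 583, 577 and 572 CPM in wild type and 657, 724 and 722 CPM in knockout (0.28 ± 0.04). YY1AP1, a partner of YY1, stood at 0.31 and KDM5B, a histone demethylase, at 0.26. Below the border 0 of 6 passed upward and 2 downward. RERE, a nuclear receptor corepressor at 8352397 to 8817643, was at 65.2, 66.1 and 61.5 CPM in wild type and 50.7, 48.3 and 50.6 CPM in knockout (−0.37 ± 0.05). ARID1A, a subunit of the SWI/SNF remodeller, was at 136, 133 and 131 CPM against 109, 100 and 110 CPM (−0.33 ± 0.04). In both the groups were apart. RERE no longer passed with effective-length offsets (−0.22) or limma on log2(TPM + 1) (−0.29). Their transcripts of 5887 and 6989 bases fall in the longest class, where the stretch below the border had its lowest median.

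Of 20 DNA-binding transcription factors above the border 5 passed upward and 3 downward, with a median of 0.21. ESRRG, an orphan nuclear receptor (1.03), and USF1, an E-box binding factor (0.35), passed upward. POU2F1, an octamer-binding factor (−0.20), NFIA of the nuclear factor I family (−0.15) and ELK4, an ETS factor (−0.15), passed downward. POU2F1 no longer passed with effective-length offsets (−0.17), length and GC offsets (−0.066) or limma on log2(TPM + 1) (−0.22). NFIA no longer passed without wild-type library 2 or 3 or knockout library 3 (−0.15 to −0.11), nor ELK4 without wild-type library 1, 2 or 3 or knockout library 1 (−0.15 to −0.12). ZBTB17, the only tested one below the border, did not pass (−0.061).

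Of 15 early response and stress genes above the border 9 passed upward and 1 downward, with a median of 0.23. ATF3, a stress-induced bZIP factor at 212565334 to 212620777, was at 17.6, 14.6 and 30.02 CPM in wild type and 76.2, 36.0 and 53.4 CPM in knockout, or 1.39 ± 0.25. The lowest knockout library was only slightly above the highest wild-type library. GADD45A, a growth-arrest gene at 67685061 to 67688338, was at 17.8, 16.7 and 20.9 CPM against 43.5, 31.8 and 37.8 CPM (1.02 ± 0.11), and JUN, a subunit of AP-1 at 58780788 to 58784327, at 206, 179 and 249 CPM against 378, 290 and 339 CPM (0.66 ± 0.10). All 3 were apart between groups and far above the level of their stretch. In each of them knockout library 2 was the lowest of its group. TXNIP, the thioredoxin-interacting protein, passed downward (−0.24), but not without wild-type library 2 or 3 or any one knockout library (−0.26 to −0.20). The TXNIP call ended in 12 of 16 settings, also with DESeq2, limma-voom, no low-count filter and scaling factors without chromosome 1. The one tested gene below the border was ID3, an inhibitor of helix-loop-helix factors whose promoter is printed above, at 34.9, 34.1 and 36.3 CPM in wild type and 23.7, 23.8 and 28.3 CPM in knockout (−0.48 ± 0.07).

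Of 20 signalling genes above the border 16 passed upward and 1 downward, with a median of 0.21. ARF1, a GTPase of the Golgi and the other printed promoter, at 228082660 to 228099212, was at 606, 607 and 623 CPM in wild type and 844, 787 and 868 CPM in knockout (0.44 ± 0.04). PIK3R3, a regulatory subunit of PI3-kinase (0.34), and PRKACB, a catalytic subunit of protein kinase A (0.34), also passed upward. JAK1, the cytokine-receptor kinase upstream of STAT proteins, at 64833229 to 64966504, was the one that passed downward. It was at 169, 177 and 169 CPM in wild type and 146, 142 and 142 CPM in knockout (−0.26 ± 0.03), apart between groups and against the level of its stretch. Below the border CDC42, a GTPase of the cytoskeleton, passed upward (0.23) and the growth kinase MTOR downward (−0.11), with 6 of 8 not passing. MTOR no longer passed without wild-type library 1 or 2 or knockout library 1 or 2 (−0.11 to −0.096), and its value was −0.0083 with length and GC offsets.

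Surface and matrix genes above the border passed upward in 9 of 14 cases and downward in 0, with NFASC, a neuronal adhesion protein (1.07), CD55, a complement regulator (0.39), and NID1, a basement membrane protein (0.27), named by the smallest p. The 2 below it, AGRN and HSPG2, did not pass. All 3 S100 genes that were members, S100A10 (0.39), S100A11 (0.37) and S100A13 (0.33), passed upward, S100A13 not without wild-type library 1, 2 or 3 or knockout library 3 (0.23 to 0.35). Of the glutathione transferases GSTM3 passed upward (0.27) and GSTM2 and GSTM4 did not, and these share sequence and overlap. Of 5 histone genes of the cluster on the q arm H4C15 passed upward (0.64), though its groups overlapped, and H2BC18 downward (−1.34), with a median of −0.42 over the 5. H4C15 no longer passed without wild-type library 1 or 2 or knockout library 1 or 3 (0.41 to 0.62). Near-identical copies make single histone genes uncertain.

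The largest rises past the threshold with at least 5 CPM in a group and groups apart were ATF3, NFASC, ESRRG, GADD45A, EFNA3, TBCE, BRINP3, MLLT11, PPFIA4 and RGL1, from 1.39 down to 0.76, and all 10 lay above the border. Among these rises the calls of ATF3, ESRRG, PPFIA4 and RGL1 ended with limma on log2(TPM + 1). EFNA3, an ephrin ligand, stood at 0.88, and MLLT11, a small protein of neural tissue, at 0.84. TBCE, a tubulin-folding chaperone, was at 48.9, 49.1 and 52.3 CPM in wild type and 99.4, 91.0 and 82.4 CPM in knockout (0.86 ± 0.06), and it overlaps ENSG00000285053 and B3GALNT2. The largest falls were RSRP1, SLC16A4-AS1, SPEN, ID3, OTUD3, CLCN6, RYR2, KIF26B, NBPF14 and CROCC, from −0.65 to −0.40. Of these, RSRP1, SPEN, ID3, OTUD3, CLCN6 and CROCC lay below the border, which held 298 of the 1565 tested members. RYR2, a calcium channel of the endoplasmic reticulum at 237042205 to 237833988, was at 16.7, 16.5 and 14.7 CPM in wild type and 11.3, 12.5 and 11.1 CPM in knockout (−0.45 ± 0.09), a value that was −0.053 with effective-length offsets. The calls of RSRP1 (−0.44), CLCN6 (−0.45), KIF26B (−0.30), NBPF14 (−0.38) and CROCC (−0.39) also ended with those offsets, so 6 of the 10 falls did, and the same 6 ended with limma on log2(TPM + 1). RSRP1, which encodes a protein rich in arginine and serine, was at 24.4, 27.8 and 21.1 CPM against 14.1, 17.5 and 14.9 CPM (−0.65 ± 0.11). NBPF14 belongs to a family of near-identical copies and CROCC has related copies nearby, so both are uncertain. CROCC no longer passed without wild-type library 1 or 3 or knockout library 1 or 3 (−0.42 to −0.33), nor PPFIA4 without wild-type library 2 (0.69) or knockout library 1 (0.64), nor with effective-length offsets (0.50).

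Set beside the rest of the genome, few regions reached the median of the stretch above the border. In full blocks of 50 neighbouring tested genes its 25 blocks had medians from 0.060 to 0.30, not counting the last 15 tested members of the long arm, which fill no block and of which the last 14 had a median of −0.099, and the 5 blocks below the border from −0.098 to −0.051. The 272 blocks of other chromosomes ran from −0.19 to 0.23, and 1 of them, on chromosome X with gene starts from 48775644 to 54440401, reached the median of the members above the border, at 0.23. Some blocks of the stretch itself also lay under that median. Its lowest block, at 0.060, was exceeded by blocks elsewhere, such as 0.18 on chromosome 15 and 0.17 on chromosome 17. Whole-chromosome medians of the others ran from −0.066 for chromosome 17 to 0.051 for chromosome 7. The stretch below the border, at −0.065 with 14.8% passing downward, lay within that range. Chromosome 9 had −0.055 with 18.2% passing downward and chromosome 21 had −0.055 with 21.7%. The lower level was thus not particular to that stretch. Among longer regions set beside it were chromosome 15 beyond 60 Mb, with a median of 0.12 and 88 of 313 tested genes passing upward, and chromosome 17 below 19 Mb, with 0.11 and 69 of 249. Beyond 19 Mb chromosome 17, where STAT5B lies (−0.14), had a median of −0.12. These regions were chosen on the same contrast, so the values are set side by side with no test.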

How the data were processed

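RNA-seq libraries of 3 wild-type and 3 STAT5B knockout HEK293 samples were grouped by their genotype label. The submitters' processing notes name FastQC, fastp, DRAGEN, Picard and hg38, without versions or roles. The annotation release, the counting method and the use of strand are not stated in the labels. Per the file headers, each gene had a transcript length, an effective length, TPM and an estimated count. In 7.12% to 7.64% of values the estimated count deposited was not whole, and counts were rounded before testing. The TPM deposited by the authors served 1 alternative.

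GENCODE 29 gave positions and gene types for 58457 of 60609 identifiers and symbols came with 42005. Transcript GC, from the same release, was missing for 115 tested genes. All 6 libraries entered one fit in edgeR 4.0.16 (R 4.3.3), after filterByExpr at a minimum count of 10 and a minimum total of 15. TMM scaling, the quasi-likelihood F test and Benjamini-Hochberg adjustment over 15958 genes were used, and passing means an adjusted p under 0.05. The filter removed 44651 genes. The biological coefficient of variation was 4.43%. CPM use TMM-scaled library sizes. Library totals of 17494958 to 21099813 set the precision. Scripts were tested on simulated data.

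Named members were the 10 largest rises and falls past the threshold with groups apart and at least 5 CPM in a group, excluding clone, LOC, LINC and pseudogene names. Added to these were the 5 most abundant and the 3 nearest to the border in each stretch, up to 3 per list by smallest p, the most abundant per window, JAK1 and STAT5B. Other neighbours of the border, and TXNIP, USP24, CENPF, RCC1, NFIA, ELK4 and IARS2, were named after their values were seen. Some genes are not reported here, and were left out of the lists and of the plots by gene. The members, the 18 lists and the border were chosen with earlier results of these data known. Alternatives were other scalings, filters and tools (DESeq2 1.42.0, limma 3.58.1), the replicate number as a block, leaving out each library, and length offsets.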

Additional observations from a re-analysis of the deposited data

How the results depend on the processing

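No median turned sign in any of the settings tried. Scaling factors without chromosome 1 gave medians of 0.1953 above the border and 0.2229 on the q arm. Effective-length offsets gave 329 passing members above the border and 25 below, against 582 and 57, with medians of 0.1757 above and 0.2019 on the q arm and a difference of 0.2287 between the stretches, against 0.2497. With limma on log2(TPM + 1) the counts were 210 and 29 and the medians 0.0972 above, −0.1109 below, 0.0796 on the p arm, 0.1163 on the q arm and 0.2082 for the difference. The median of all genes was −0.0587 there, a shift that cancels in the difference. Length and GC offsets, chosen after seeing the data, gave 0.1694 above, 0.1419 on the p arm and 0.1932 on the q arm, and protein-coding members alone gave 0.1930 above. DESeq2 called 473 members above and 42 below. Leaving out 1 library gave 468 to 546 calls above and 35 to 54 below, with medians of 0.1824 to 0.1908 and −0.0748 to −0.0564. The cause of these moves was not tested.

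Of 106 named members that passed, 30 no longer passed with effective-length offsets, 39 with limma on log2(TPM + 1), 12 with length and GC offsets and 7 with DESeq2. Those 7 were CROCC, ELK4, PINK1, S100A13, SNHG3, TP73 and TXNIP. The calls of ATP5IF1, DNAJC8 and NUCKS1 were among those that ended with limma on log2(TPM + 1). Turned directions were HSPG2 at 0.0053 with effective-length and 0.019 with length and GC offsets, SPCS2P4 at −0.052 with length and GC offsets, ATP5IF1 at 0.050 and MED18 at 0.018 with effective-length offsets, IARS2 at −0.034 with limma on log2(TPM + 1), and AHCTF1 at 0.0091 with effective-length and 0.047 with length and GC offsets. SERBP1 was at 0.0011 with scaling factors without chromosome 1, 0.059 with effective-length and 0.0083 with length and GC offsets. Leaving out 1 library gave −0.051 to 0.023 for HNRNPR, −0.11 to 0.018 for RPL11, −0.039 to 0.016 for SERBP1, −0.34 to 0.12 for GSTM4, −0.28 to 0.037 for PGBD2 and −0.11 to 0.048 for MED18. Apart from ATP5IF1, none of these had passed.

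With the replicate number as a block, 574 members passed above the border (545 upward) and 54 below (11 upward), with a median of 0.1856 above. Named calls that ended there were those of TP73 and TXNIP. Same-numbered libraries correlated at 0.0038, 0.1042 and 0.0415 in their deviations over 15958 genes, so the numbers were not taken to pair the samples. Depth limits mainly members of low level, and 3 libraries a group limit all calls.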

Other observations

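Near the end of the long arm the shift was not seen. The 14 members from AHCTF1, a nuclear pore protein, at 246839098 to PGBD2 at 248906196 had a median log2 fold change of −0.099, and 2 of them had a value over 0. By edgeR 0 of the 14 passed in either direction, and by DESeq2 0, while at an unadjusted p under 0.05 there were 0 upward and 2 downward. Their library medians of log2(CPM + 0.5) relative to wild type were 0.036, −0.042 and −0.00050 in wild type and −0.030, −0.12 and −0.066 in knockout, so the groups overlapped. AHCTF1, the most abundant of them, was at 153, 148 and 153 CPM in wild type and 150, 150 and 149 CPM in knockout. Most of the others are zinc finger genes. Without these 14 the median above the border was 0.19 over 1253 members. The stretch was set off after its values were seen.

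At 235 to 236 Mb most members exceeded the level of the long arm. Of 10 members there 8 passed upward, with a median of 0.43. The first and the last of the 8 were TOMM20 (0.15), an import receptor of the mitochondrial outer membrane, which lay under the median of 0.21 for the arm, and NID1 (0.27). Between them, from 235131183 on, were RBM34 (0.42), an RNA-binding protein, ARID4B (0.43), a subunit of the SIN3 corepressor complex whose call ended with effective-length offsets, GGPS1 (0.67), which makes geranylgeranyl diphosphate, TBCE (0.86), B3GALNT2 (0.48), a glycosyltransferase of dystroglycan, and GNG4 (0.49), a G protein gamma subunit. Limma on log2(TPM + 1) ended the calls of ARID4B and TOMM20. GGPS1 was at 63.1, 67.4 and 67.8 CPM in wild type and 107, 108 and 99.8 CPM in knockout, with the groups apart. This group was also chosen after its values were seen.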
